A study of Mus musculus with 45 samples.

Results

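The genes described here are 50 DNA repair and replication genes, named by role and not by any measured value, and followed in mouse embryonic stem cells (ESCs) as transcription restarted. Each gene was represented by its longest transcript of at least 20 kb, found by Ensembl identifier in the GENCODE M21 annotation of GRCm38, and 46 of the 50 had one, out of 11825 such genes in the series. Atrip, Mdc1, Msh6 and Lig4 have longest transcripts of 16.2, 18.2, 15.8 and 7.25 kb and were left out. The 46 genes lie on 15 chromosomes. Their transcripts run from 20.9 kb (Timeless) to 315 kb (Xrcc4), with a median of 62.5 kb, against 47.0 kb for all 11825 genes. In that annotation the transcripts of Xrcc4 and Ercc8 are classed as nonsense-mediated decay and that of Pms2 as a retained intron.

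The study asked how the elongation rate of RNA polymerase II (RNAPII) shapes gene expression, and compared ESCs with 2, 1 or no wild-type copies of Polr2a, which encodes the largest RNAPII subunit. WT/WT cells carry both wild-type copies. WT/slow cells carry 1 copy with the R749H substitution, named slow for its lower elongation rate, and slow/slow cells carry it on both copies. In 4sU-DRB-seq, elongation is blocked with DRB, an inhibitor of the kinase that releases RNAPII from the promoter, and restarts when DRB is removed. Newly made RNA is labelled with 4-thiouridine (4sU) before harvest and sequenced, so that the distance reached by the wave of polymerases can be read. All cells were cultured in 2i medium, kept in DRB for 4 h, and harvested 5, 15 or 30 min after its removal with 4sU present for the last 10 min, in 3 biological replicates per genotype and time, 27 samples in all. The mutant lines were made by gene targeting in ESCs, and the number of independent clones behind each genotype is not given in the sources used here, so genotype and cell line cannot be told apart. The methods and the labels give a block of 4 h, and the results of the study give another length.

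The measured value is the boundary, the distance in kb from the annotated start to the end of the wave, called by the authors for each transcript in each sample against the mean of the samples that had not been released. The called distances ran from 0.2 to 59.3 kb on a grid of 100 bases, and 43.5% of all boundaries of the 11825 genes were exactly 2.5 kb. What this single value stands for is not given in the sources used here, so it is counted apart in what follows unless stated. Between 8365 and 10030 genes had a boundary in a sample. The number of reads behind a boundary is unknown, and precision is judged only from the 3 replicates. WT/WT replicate 2 stood apart from the other WT/WT samples, with a median over all genes, 2.5-kb values left out, of 17.2 kb after 5 min (10 and 11.3 kb in the other replicates) and 57.5% of its boundaries at 2.5 kb after 15 min (45.6% and 41.1%), and the main counts, shares and medians that compare genotypes are given with and without it. Of 8 genes of the pluripotent state, Esrrb and Tfcp2l1 had a boundary in all 27 samples, and Pou5f1, Sox2 and Dppa5a, which are all short, had none. Of 5 primitive endoderm, 4 neural and 4 fibroblast genes, Gata6, Pdgfra and Fn1 also had a boundary in all 27, and Sox17, Sox7, Neurog2, Dcx, Col1a1 and Col1a2 had none, so a call does not identify the cells.

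Kinases such as Atm and Atr respond to broken DNA and stalled forks and signal through adaptor proteins. Separate machines act on each kind of lesion: homologous recombination copies the sister chromatid, end joining ligates broken ends, the Fanconi anaemia pathway unhooks crosslinks, and mismatch and excision repair replace damaged or mispaired bases. ESCs divide fast and spend much of their cycle in S phase, and many of these genes are long, so that polymerases need many minutes to cross them.

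Of 1242 possible boundaries over the 46 genes and 27 samples, 1231 were called. Of these, 545 were at 2.5 kb, 1 was lower (1.8 kb, Ercc6 in WT/WT replicate 1 after 30 min) and the highest was 56.5 kb, in Ercc6 in WT/slow replicate 1 after 15 min. The heat map of boundaries shows a pattern common to the 3 genotypes, with short distances after 5 min, long distances in the long genes after 15 min, and 2.5 kb in most genes after 30 min.

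**Figure D1:**
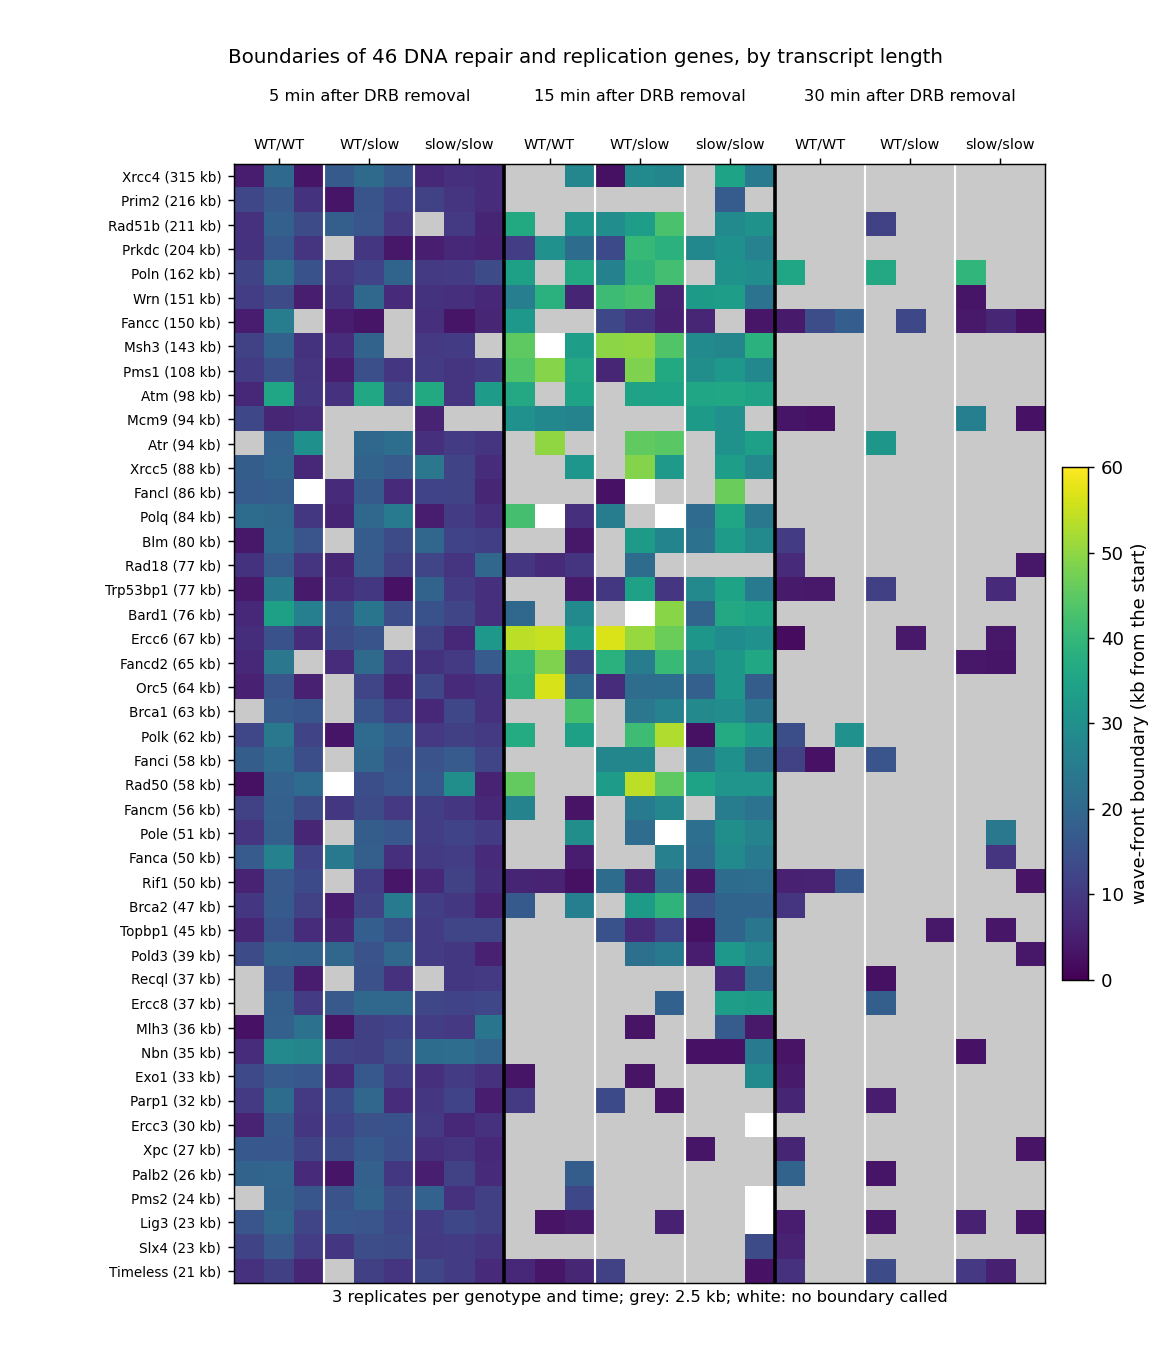
Boundaries of the 46 DNA repair and replication genes (rows, longest transcript at the top) in 27 samples (columns, 3 replicates for each genotype and time). Colour gives the distance from the start in kb, grey marks 2.5 kb and white marks no call. Of the 414 boundaries after 30 min, 350 are grey.

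After 5 min nearly all of these genes had a boundary other than 2.5 kb. In WT/WT cells 5, 0 and 2 of the 46 genes were at 2.5 kb in replicates 1, 2 and 3. In WT/slow cells the numbers were 12, 1 and 4, and in slow/slow cells 2, 1 and 2. As a share of boundaries called, this was 5.10% ± 5.46 (SD, n = 3) in WT/WT cells, 12.5% ± 12.7 in WT/slow cells and 3.62% ± 1.26 in slow/slow cells, with overlapping replicates. Over all 11825 genes the share was 19.6% ± 2.21, 21.1% ± 2.28 and 18.7% ± 2.24.

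After 15 min more of these genes were at 2.5 kb in each genotype, by count. The number was 23, 32 and 17 in the WT/WT replicates, 26, 15 and 15 in the WT/slow replicates and 20, 11 and 7 in the slow/slow replicates. The mean share was 53.2% ± 18.1 (SD, n = 3) in WT/WT cells, 41.6% ± 13.0 in WT/slow cells and 27.9% ± 14 in slow/slow cells, and the slow/slow values of 43.5%, 23.9% and 16.3% overlap the WT/WT values of 50%, 72.7% and 37.0%. Over all genes the mean shares were 48.1% ± 8.50, 43.5% ± 2.72 and 35.0% ± 3.28, in the same order. There the slow/slow replicates (31.2% to 37.4%) did not overlap the WT/WT replicates (41.1% to 57.5%). No test was run on these shares. The WT/WT share without replicate 2 was 43.5% in these genes and 43.3% over all genes, and 7.66% in these genes after 5 min. With the shortest transcript of at least 20 kb of each gene in place of the longest, the shares after 15 min were 59.0% in WT/WT, 55.0% in WT/slow and 52.8% in slow/slow cells, the same order with smaller gaps.

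The share at 2.5 kb after 15 min differed with transcript length. Of the 7 genes of 20 to 30 kb (Ercc3, Xpc, Palb2, Pms2, Lig3, Slx4 and Timeless), 66.7% ± 21.8 (SD, n = 3) of boundaries in WT/WT cells and 78.6% ± 25.8 in slow/slow cells were at 2.5 kb, with overlapping replicates, against 63.7% ± 4.71 and 65.4% ± 4.36 over all genes of that length. In the 15 genes of 30 to 60 kb the shares were 73.3% ± 17.6 (SD, n = 3) in WT/WT and 20% ± 17.6 in slow/slow cells, with WT/WT replicates from 60% to 93.3% and slow/slow replicates from 6.67% to 40%, so that the genotypes did not overlap. The WT/WT share was 63.3% without replicate 2. The WT/slow replicates of the 15 genes ran from 33.3% to 66.7% and overlapped both. Over all genes of 30 to 60 kb the WT/WT and slow/slow shares were 55.6% ± 8.46 and 32.6% ± 6.27. These did not overlap either, with replicates from 48.2% to 64.8% and from 26.4% to 38.9%. In the 24 genes of at least 60 kb the shares were 36.4% ± 21.4 and 19.4% ± 12.7, close to the 33.6% ± 10.7 and 20.96% ± 1.04 of all genes of that length.

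**Figure D2:**
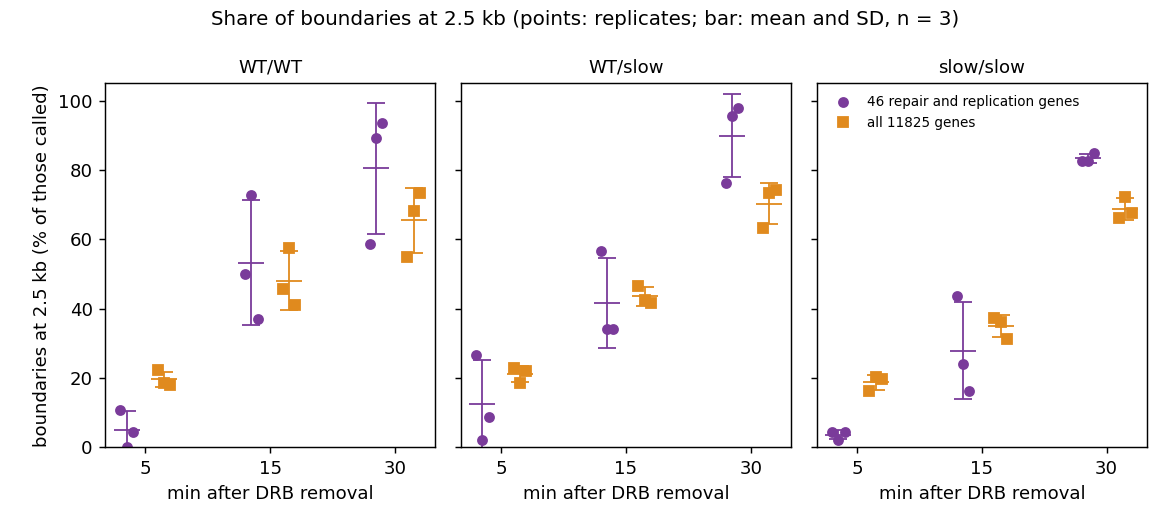
Share of called boundaries at 2.5 kb (y axis, percent) against time after DRB removal (x axis, min) in each genotype, for the 46 DNA repair and replication genes (purple circles) and all 11825 genes (orange squares). Points are replicates and bars the mean and SD of 3; after 15 min the mean of the repair genes goes from 53.2% in WT/WT to 27.9% in slow/slow cells, with wide replicate spread.

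After 30 min 350 of the 414 boundaries were at 2.5 kb, and 17 of the 46 genes had no other value in any of the 9 samples. The number of genes at 2.5 kb was 27, 41 and 43 in the WT/WT replicates, 35, 44 and 45 in the WT/slow replicates and 38, 38 and 39 in the slow/slow replicates. The mean share was 80.4% ± 19.0 (SD, n = 3) in WT/WT, 89.9% ± 12.0 in WT/slow and 83.3% ± 1.26 in slow/slow cells. Over all genes it was 65.4% ± 9.37, 70.3% ± 6.03 and 68.6% ± 3.18 in the same order. Without WT/WT replicate 2 the WT/WT share was 76.1% in these genes and 64.1% over all genes. Only 20 boundaries of these genes were above 10 kb. Poln, a translesion polymerase of 162 kb, held 3 of them, at 35.2, 36.3 and 39.5 kb in replicate 1 of the WT/WT, the WT/slow and the slow/slow cells, and was at 2.5 kb in the other 6 samples. Fancc, a component of the Fanconi core complex, was the gene most often away from 2.5 kb, in 7 of 9 samples and at 2.8 to 17.9 kb. Boundaries after 30 min were therefore used as counts only.

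The comparison of slow/slow with WT/WT cells after 5 min asks whether the slow polymerase had moved less far. Of the 45 genes with at least 2 boundaries other than 2.5 kb in each genotype, 34 had a lower mean in slow/slow cells, and the median difference was -3.23 kb, against -2.77 kb over all 7049 genes tested. None of the 45 passed an adjusted p of 0.05 (limma, Benjamini-Hochberg over all genes), and 0.0284% of all genes tested did. At an unadjusted p under 0.05, 3 of the 45 and 7.01% of all genes passed. Without WT/WT replicate 2, in which these genes lay far from the start after 5 min, the median difference over 37 genes was -0.72 kb, and it lay between -2.90 and -4.58 kb without any other replicate of these genotypes.

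The 3 lowest unadjusted p-values after 5 min belonged to Atr, Xpc and Brca1. Atr, the kinase of stalled replication forks, had boundaries of 2.5, 18.8 and 30 kb in the WT/WT replicates and 8.3, 10.4 and 9.3 kb in the slow/slow replicates. With 2.5 kb set apart, its mean was 15.1 kb lower in slow/slow cells (SE 3.50, adjusted p = 0.312, limma). Xpc, which recognises helix-distorting lesions for nucleotide excision repair, was at 16.6, 16.3 and 12.3 kb in WT/WT cells and 8.2, 9.2 and 7.0 kb in slow/slow cells, a difference of -6.93 kb (SE 2.38, adjusted p = 0.619, limma). The Xpc values of the genotypes do not overlap. These genes were named after their values were seen.

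Among the 35 genes with all 6 boundaries other than 2.5 kb after 5 min, 8 had each slow/slow replicate below each WT/WT replicate, where 16.3% of all genes so measured did. No gene had each slow/slow replicate above, where 1.42% of all genes did. The 8 were Prkdc, Polk, Fancm, Fanca, Pold3, Exo1, Xpc and Slx4, and their means differed by -3.33 kb (Slx4, a scaffold for nucleases that cut recombination intermediates) to -9.13 kb (Fanca, a core complex subunit). They come from 5 of the 9 roles: end joining, the polymerases, the Fanconi pathway, recombination and excision repair. When WT/WT replicate 2 was left out, the same 8 of 35 lay wholly below (17.4% of all genes), and 6 lay wholly above (10% of all genes), Xrcc4, Rad18, Trp53bp1, Orc5, Pole and Topbp1, so that the absence of genes above rested on that replicate.

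After 15 min the comparison of slow/slow with WT/WT cells could be made in 17 of the 46 genes, since the rest were at 2.5 kb in 2 or more replicates of a genotype or lacked a call. None of the 17 passed the threshold (limma), while 8.73% of the 4033 genes tested did. At an unadjusted p under 0.05, 1 of the 17 (Ercc6) and 22.1% of all genes passed. The median difference was -2.00 kb, against -0.10 kb over all genes tested. It was -0.38 kb without WT/WT replicate 2, -0.43 kb without slow/slow replicate 1, -7.44 kb over 8 genes without WT/WT replicate 3, and positive, 1.76 kb over 8 genes, without WT/WT replicate 1. It was also positive, 5.27 kb over 46 genes, with 2.5 kb kept as a value.

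Of 7 genes with all 6 boundaries other than 2.5 kb after 15 min, 2 had each slow/slow replicate below each WT/WT replicate, Ercc6 and Pms1, where 16.4% of all genes so measured did. None lay wholly above, where 9.94% of all genes did. Without WT/WT replicate 2, 2 of 13 lay below, again Ercc6 and Pms1 (27.3% of all genes), and 1, Prkdc, above (14.5% of all genes). Ercc6 and Pms1 are described with their roles below, and the plot of boundaries after 15 min shows them at its left edge.

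**Figure D3:**
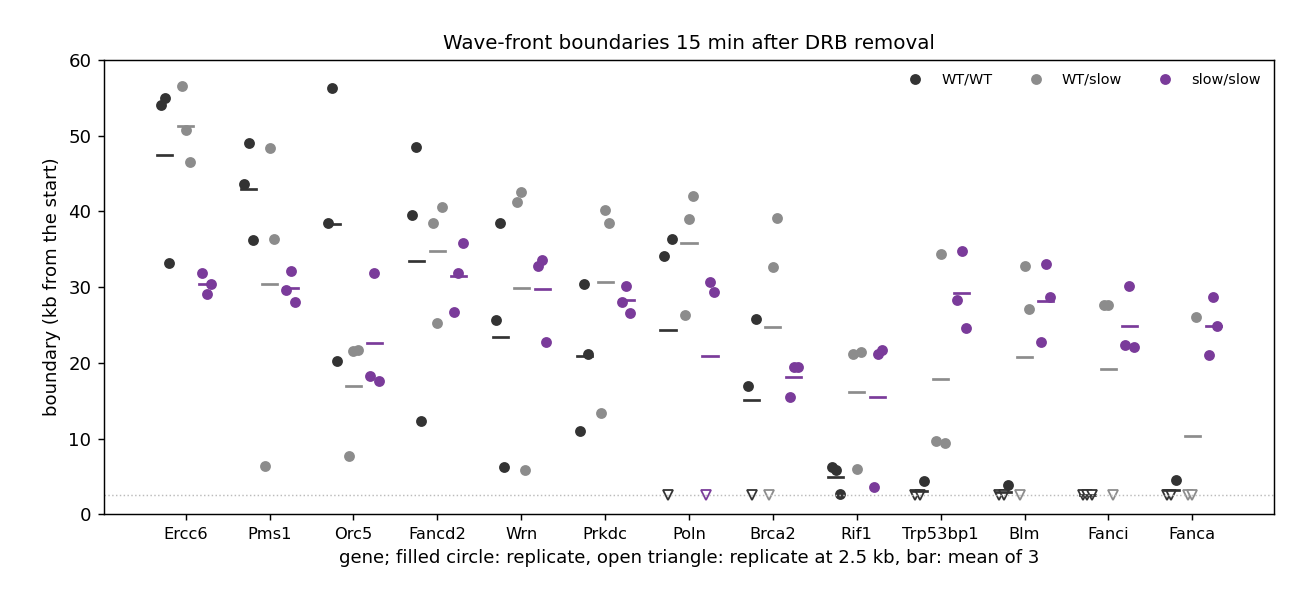
Boundaries 15 min after DRB removal (y axis, kb from the start) in 13 genes (x axis) for WT/WT (black), WT/slow (grey) and slow/slow (purple) cells. Circles are replicates, open triangles replicates at 2.5 kb, and bars the mean of the called replicates, 2.5-kb values included. The purple points of Ercc6 (29.1 to 31.8 kb) and Pms1 (28.0 to 32.1 kb) lie below the black ones, and those of Trp53bp1, Blm, Fanci and Fanca above them.

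Ercc6 encodes a chromatin remodeller that acts when RNAPII stalls at a lesion in a transcribed strand, and its transcript (chromosome 14, 32513521 to 32580989, plus strand, GRCm38) is 67.5 kb long. After 15 min its boundaries were 54.0, 54.9 and 33.2 kb in WT/WT cells and 56.5, 50.7 and 46.5 kb in WT/slow cells. In slow/slow cells they were 31.8, 29.1 and 30.4 kb, below all other samples. The mean of 47.4 ± 12.3 kb (SD, n = 3) in WT/WT cells falls in intron 11 and that of 30.4 ± 1.35 kb in slow/slow cells in intron 6. The difference was -16.9 kb (SE 6.39, adjusted p = 0.128, limma).

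After 5 min Ercc6 did not show this order. Its boundaries were then 7.8, 15 and 7.9 kb in WT/WT cells, 13.7, 15.7 and 2.5 kb in WT/slow cells and 11.5, 6.8 and 32 kb in slow/slow cells. The slow/slow mean was 6.53 kb above the WT/WT mean (SE 6.34, adjusted p = 0.907, limma), with the value of slow/slow replicate 3 far from the other replicates. From 5 to 15 min the boundary advanced by 37.1 kb in WT/WT cells (SE 6.37, adjusted p = 0.00145, limma) and by 36.5 kb in WT/slow cells (SE 7.13, adjusted p = 0.00376, limma). The slow/slow advance minus the WT/WT advance, -23.5 kb (SE 9.03), did not pass the threshold (adjusted p = 0.247, limma).

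The other genes of excision and single-strand break repair were mostly short and mostly at 2.5 kb after 15 min. Over these 5 genes, 12 of 15 boundaries were at 2.5 kb in WT/WT cells, 11 of 15 in WT/slow cells and 10 of 13 in slow/slow cells. Ercc3, a helicase of TFIIH, was at 2.5 kb in each called sample after 15 min. Ercc8, which acts with Ercc6, was at 2.5 kb in all WT/WT replicates and at 2.5, 33.3 and 32.6 kb in the slow/slow replicates. Parp1, which marks strand breaks with poly(ADP-ribose), and Lig3, a ligase of single-strand break repair, were at or under 13.4 kb in each sample after 15 min.

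Pms1, a mismatch repair gene of the MutL family (chromosome 1, 53189187 to 53297018, minus strand, 108 kb), was the only one of the 46 with Wrn to have all 18 boundaries after 5 and 15 min other than 2.5 kb. After 15 min it was at 43.6, 49.0 and 36.2 kb in WT/WT cells, 6.4, 48.3 and 36.4 kb in WT/slow cells and 29.6, 32.1 and 28.0 kb in slow/slow cells. The mean boundary lay in intron 5 in WT/WT cells (42.9 ± 6.43 kb, SD, n = 3) and in intron 4 in slow/slow cells (29.9 ± 2.07 kb). The slow/slow values lie below the WT/WT values and inside the range of the WT/slow values. The difference of -13.0 kb (SE 7.35) had an adjusted p of 0.330 (limma). With the WT/slow samples left out of the fit, Pms1 was the 1 of the 17 genes that passed, where 11% of all genes tested in that fit did.

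After 5 min Pms1 was at 10.4, 14.6 and 9.2 kb in WT/WT cells, 4.5, 14.7 and 9.6 kb in WT/slow cells and 10.7, 9.1 and 10.6 kb in slow/slow cells. The genotypes overlap there. Its progress to 15 min was 31.5 kb in WT/WT cells (SE 7.34, adjusted p = 0.00943, limma), or 3.15 kb/min.

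Msh3, which acts on larger mispaired loops, advanced in each genotype, by 26.2 kb in WT/WT (SE 4.97), 34.5 kb in WT/slow (SE 4.99) and 21.3 kb in slow/slow cells (SE 4.99). Its boundaries after 15 min were 45.2 and 33.4 kb in WT/WT replicates 1 and 3, with no call in replicate 2, and 28.5, 27.6 and 38.3 kb in slow/slow cells. These ranges overlap. Mlh3 and Pms2, shorter genes of the MutL family, were at 2.5 kb in 13 of 17 boundaries called after 15 min.

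Among the genes of replication licensing and forks, Orc5, an origin recognition subunit of 63.9 kb, spread widely in WT/WT cells. By 15 min it was at 38.5, 56.3 and 20.3 kb there, at 7.7, 21.5 and 21.7 kb in WT/slow cells and at 18.3, 31.8 and 17.6 kb in slow/slow cells. After 5 min it was at 5.6, 15.9 and 5.4 kb, at 2.5, 12.5 and 6.2 kb, and at 12.7, 7.2 and 8.7 kb in the same order. The mutant cells were lower on average after 15 min, by 21.4 kb in WT/slow (SE 7.36, adjusted p = 0.119, limma) and 15.8 kb in slow/slow cells (SE 7.35, adjusted p = 0.227, limma). The ranges of slow/slow and WT/WT cells overlap. Without WT/WT replicate 3, Orc5 and Ercc6 passed of the 8 genes tested in slow/slow against WT/WT cells (10.3% of all genes), and Orc5 of the 7 tested in WT/slow against WT/WT cells (5.83% of all genes).

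Mcm9, a helicase that acts in recombination and mismatch repair, was the gene in which WT/slow cells stood apart. It was at 2.5 kb in all 6 WT/slow samples after 5 and 15 min. WT/WT cells had 13.1, 6.5 and 7.7 kb after 5 min and 30.3, 28.1 and 26.8 kb after 15 min, an advance of 1.93 kb/min (SE 0.276, adjusted p = 0.00375, limma). Slow/slow cells had 32.6, 30.3 and 2.5 kb after 15 min. With 2.5 kb kept as a value, Mcm9 was 25.9 kb lower in WT/slow than in WT/WT cells after 15 min (SE 5.55, adjusted p = 0.0231, limma), the 1 gene of 46 that passed in that fit, where 2.61% of all genes did. Timeless, a fork protection gene of 20.9 kb, was at 6.8, 3.7 and 6.4 kb in WT/WT cells after 15 min and at 2.5, 2.5 and 3.0 kb in slow/slow cells.

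Of the damage signalling genes, Rif1, which protects broken ends and sets replication timing, had the most boundaries other than 2.5 kb, 17 of 18. In WT/WT cells it was at 5.9, 16.8 and 13.4 kb after 5 min and at 6.2, 5.8 and 2.7 kb after 15 min. In WT/slow cells it was at 2.5, 10.8 and 3.7 kb and then at 21.2, 6.0 and 21.4 kb, and in slow/slow cells at 7.0, 11.9 and 7.9 kb and then at 3.6, 21.2 and 21.7 kb. Both mutant genotypes thus held 2 values above 21 kb and 1 of 6 kb or less after 15 min. Against WT/WT, the mean was 10.6 kb higher in slow/slow cells (SE 5.19, adjusted p = 0.253, limma) and 11.3 kb higher in WT/slow cells (SE 5.19, adjusted p = 0.264, limma).

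Atm, the kinase of double-strand breaks, had the narrowest spread of the 23 genes with at least 6 boundaries other than 2.5 kb after 15 min. Its 7 such boundaries lay between 34.5 and 36.2 kb (SD 0.631 kb) over the 3 genotypes, and the next narrowest range, in Rad51b, was 14.4 kb. Atm was at 36.2, 2.5 and 34.9 kb in WT/WT cells, 2.5, 34.5 and 34.7 kb in WT/slow cells and 35.2, 35.7 and 34.6 kb in slow/slow cells. Distances near this were called already after 5 min in WT/WT replicate 2 (35.2 kb), WT/slow replicate 2 (35.8 kb) and slow/slow replicates 1 and 3 (36.4 and 33.0 kb), while the other 5 samples were at 6.9 to 12.9 kb. The slow/slow mean, at base 53501573 of chromosome 9 on the minus strand, is in intron 17 by the annotation used. In the deposited tables the transcript starts at 53536740, upstream of the 53533966 given in GENCODE M21. Npat starts 307 bases away on the other strand.

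Trp53bp1, which steers breaks toward end joining, was at 2.5, 2.5 and 4.4 kb in WT/WT cells after 15 min. It was at 9.7, 34.4 and 9.4 kb in WT/slow cells and at 28.3, 34.8 and 24.6 kb in slow/slow cells, with no overlap of slow/slow and WT/WT cells. After 5 min the genotypes overlapped, at 4.0, 24.3 and 4.4 kb in WT/WT cells, 7.7, 9.8 and 2.9 kb in WT/slow cells and 19.2, 10.7 and 8.4 kb in slow/slow cells. Rad50, which tethers broken ends, was at 45.6, 2.5 and 2.5 kb in WT/WT cells after 15 min, at 33.0, 54.1 and 45.2 kb in WT/slow cells and at 34.9, 31.3 and 31.2 kb in slow/slow cells. Nbn, its partner, and Topbp1, an activator of Atr, were at 2.5 kb in all WT/WT replicates after 15 min, and in slow/slow cells Nbn was at 2.9, 2.9 and 24.5 kb and Topbp1 at 2.6, 19.4 and 23.6 kb.

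Blm, Fanci and Fanca showed the same order after 15 min, with 2.5 kb or little more in WT/WT cells and far higher values in slow/slow cells. Blm, the RecQ helicase that dissolves recombination intermediates, was at 2.5, 2.5 and 3.9 kb in WT/WT cells and 22.7, 33.0 and 28.7 kb in slow/slow cells. Fanci, which is monoubiquitinated with Fancd2 at crosslinks, was at 2.5 kb in all 3 WT/WT replicates and at 22.4, 30.2 and 22.1 kb in slow/slow cells. Fanca was at 2.5, 2.5 and 4.5 kb in WT/WT cells and at 21, 28.7 and 24.9 kb in slow/slow cells. WT/slow cells were mixed in these genes, with 2.5, 32.8 and 27.1 kb in Blm, 27.6, 27.6 and 2.5 kb in Fanci, and 2.5, 2.5 and 26.1 kb in Fanca.

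Fanci, Fanca and Blm were already called beyond 2.5 kb in WT/WT cells after 5 min. Fanci was then at 17.6, 21 and 14.3 kb, Fanca at 17.3, 26.4 and 12.0 kb and Blm at 3.8, 20.4 and 15.8 kb. The slow/slow replicates were at 15.3, 17.2 and 12.5 kb in Fanci, 10.1, 10.8 and 7.4 kb in Fanca and 19.8, 12.0 and 11.1 kb in Blm. In Fanci and Fanca, therefore, each WT/WT boundary after 15 min was lower than each after 5 min, and each slow/slow boundary was higher.

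With 2.5 kb kept as a value, all 46 genes could be tested after 15 min, and 4 passed, all higher in slow/slow cells, where 7.91% of the 9576 genes tested passed. Trp53bp1 differed by 26.1 kb (SE 6.49, adjusted p = 0.0236, limma), Blm by 25.2 kb (SE 6.72, adjusted p = 0.0344, limma), Fanci by 22.4 kb (SE 5.81, adjusted p = 0.0300, limma) and Fanca by 21.7 kb (SE 5.75, adjusted p = 0.0332, limma). Without WT/WT replicate 2, chosen after seeing the data, Trp53bp1 alone of the 46 passed, where 6.79% of all genes did. Counted by ranges, 7 of 41 genes had each slow/slow replicate above each WT/WT replicate (13.2% of all genes), the others being Topbp1, Pold3 and Nbn, and 4 had each below (5.89% of all genes), Pms1, Ercc6, Rad18 and Timeless. Without WT/WT replicate 2, 8 of 43 lay above (15.4% of all genes), with Prkdc added, and 6 below (13.4% of all genes), with Rad51b and Poln added. What a boundary of 2.5 kb in WT/WT cells records is not known here, so these differences are differences in the called value.

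The promoters of the 4 genes that passed are shown to let the start regions be compared. With them are those of Ercc6 and Pms1, whose slow/slow boundaries after 15 min lay wholly below WT/WT also with 2.5 kb set apart. Each is the 250 bases before the RefSeq start on the gene's strand, 5′ to 3′, from GRCm38.p6, and that start lies 0 to 121 bases from the transcript start used for the boundaries. Capitals mark CCAAT boxes (CCAAT) and GC boxes (GGGCGG), searched on both strands.
Fanca (chr8:123318577-123318826, minus strand): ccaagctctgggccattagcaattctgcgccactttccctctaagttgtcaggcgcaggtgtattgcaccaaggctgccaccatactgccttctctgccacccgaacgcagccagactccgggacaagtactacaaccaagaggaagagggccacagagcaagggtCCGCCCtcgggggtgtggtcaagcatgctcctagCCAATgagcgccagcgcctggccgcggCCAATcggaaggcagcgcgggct
Fanci (chr7:79392088-79392337, plus strand): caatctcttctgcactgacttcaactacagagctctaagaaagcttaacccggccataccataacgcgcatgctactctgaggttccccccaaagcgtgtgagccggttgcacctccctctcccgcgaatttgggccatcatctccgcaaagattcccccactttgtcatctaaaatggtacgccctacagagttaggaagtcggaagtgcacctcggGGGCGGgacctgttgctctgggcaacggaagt
Blm (chr7:80534999-80535248, minus strand): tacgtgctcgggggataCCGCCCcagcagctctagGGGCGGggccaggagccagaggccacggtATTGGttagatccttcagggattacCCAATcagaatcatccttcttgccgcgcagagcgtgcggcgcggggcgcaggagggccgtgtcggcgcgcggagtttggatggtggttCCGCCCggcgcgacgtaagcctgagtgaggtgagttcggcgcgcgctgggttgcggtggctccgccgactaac
Trp53bp1 (chr2:121271408-121271657, minus strand): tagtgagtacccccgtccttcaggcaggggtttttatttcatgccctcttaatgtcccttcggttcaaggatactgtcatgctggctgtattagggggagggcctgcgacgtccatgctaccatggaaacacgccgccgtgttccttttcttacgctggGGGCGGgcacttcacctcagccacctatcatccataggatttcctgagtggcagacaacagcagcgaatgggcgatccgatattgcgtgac
Ercc6 (chr14:32513271-32513520, plus strand): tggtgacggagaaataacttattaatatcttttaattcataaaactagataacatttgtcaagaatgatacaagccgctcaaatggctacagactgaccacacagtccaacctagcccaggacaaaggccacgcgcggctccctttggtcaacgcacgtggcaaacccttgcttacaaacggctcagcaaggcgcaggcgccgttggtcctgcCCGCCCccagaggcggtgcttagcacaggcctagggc
Pms1 (chr1:53297029-53297278, minus strand): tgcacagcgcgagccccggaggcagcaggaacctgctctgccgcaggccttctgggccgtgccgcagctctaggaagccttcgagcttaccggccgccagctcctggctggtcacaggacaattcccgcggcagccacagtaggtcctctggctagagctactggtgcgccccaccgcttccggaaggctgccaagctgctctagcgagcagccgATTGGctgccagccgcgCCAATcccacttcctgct

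In the 6 printed promoters the motifs do not separate the genes by the direction of their boundary. Rad18, wholly below only with 2.5 kb kept, is not printed, and its promoter held neither a GC box nor a CCAAT box. A GC box was found in Fanca, Fanci, Blm, Trp53bp1 and Ercc6, and CCAAT in Fanca, Blm and Pms1. Of 32 of the 46 genes with a RefSeq promoter within 500 bases of the transcript start, 22 (68.8%) held a GC box, 15 (46.9%) a CCAAT box and 4 (12.5%) an E2F site (TTTCCCGC, TTTGGCGC, TTTCGCGC or TTTGCCGC, on either strand). Among all 32851 RefSeq promoters the shares were 32.7%, 33.8% and 1.86%. A match records letters only, and none of the 6 printed promoters held an E2F site.

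Fancd2, the monoubiquitinated partner of Fanci, was the Fanconi gene with the most boundaries other than 2.5 kb, 17 of 18, and did not share the pattern of Fanci and Fanca. After 15 min it was at 39.5, 48.5 and 12.3 kb in WT/WT cells, 38.4, 25.2 and 40.6 kb in WT/slow cells and 26.7, 31.8 and 35.8 kb in slow/slow cells. After 5 min it was at 7.0, 23.8 and 2.5 kb, 7.5, 20.8 and 10.3 kb, and 8.8, 10.1 and 17.3 kb. Slow/slow minus WT/WT was -2.00 kb after 15 min (SE 7.88, adjusted p = 0.916, limma), with SDs of 4.56 kb in slow/slow and 18.8 kb in WT/WT cells. Fancm, the helicase that anchors the core complex, and Fancl, its ubiquitin ligase, were at 2.5 kb in 2 or more of 6 WT/WT and slow/slow samples after 15 min.

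Of the recombination genes, Brca2, a central gene of homologous recombination, had the most boundaries other than 2.5 kb, 16 of 18. It was at 9.4, 17.0 and 11.7 kb in WT/WT cells, 4.6, 12.2 and 24.7 kb in WT/slow cells and 11.1, 9.7 and 6.0 kb in slow/slow cells after 5 min. By 15 min it was at 16.9, 2.5 and 25.8 kb, 2.5, 32.7 and 39.1 kb, and 15.5, 19.4 and 19.4 kb. The 2 WT/slow values other than 2.5 kb, 32.7 and 39.1 kb, lay above all others. With 2.5 kb set apart, WT/slow exceeded WT/WT cells by 14.6 kb (SE 5.55, adjusted p = 0.175, limma). Brca1, its partner in recombination, was at 28.2, 29.3 and 23.6 kb in slow/slow cells after 15 min and at 2.5, 2.5 and 42.6 kb in WT/WT cells. Bard1, which pairs with Brca1, was at 20.3, 2.5 and 28.8 kb in WT/WT cells and 19.0, 36.1 and 34.9 kb in slow/slow cells after 15 min, with overlapping ranges. Slx4, Palb2 and the nuclease Exo1, the shortest of the recombination genes, were at 2.5 kb in most samples after 15 min.

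Wrn, a RecQ helicase and exonuclease of 151 kb, had all 18 boundaries after 5 and 15 min other than 2.5 kb. Its mean boundary after 15 min lay in its first intron, of 32.1 kb, in each genotype. These means average replicates from 5.9 to 42.5 kb, so they do not place each replicate in that intron. After 15 min Wrn was at 25.7, 38.4 and 6.3 kb in WT/WT cells, 41.2, 42.5 and 5.9 kb in WT/slow cells and 32.8, 33.6 and 22.8 kb in slow/slow cells. After 5 min it was at 10.9, 13.9 and 5.1 kb, 8.9, 20.3 and 7.1 kb, and 8.8, 8.0 and 6.7 kb. The genotypes overlap at both times, with a difference of 6.27 kb after 15 min between slow/slow and WT/WT cells (SE 8.83, adjusted p = 0.737, limma). Recql, the shortest of the 3 RecQ genes, was at 2.5 kb in all 6 WT/WT and WT/slow samples after 15 min.

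Prkdc, the DNA-dependent protein kinase of end joining (204 kb), had slow/slow values wholly below the WT/WT values after 5 min and not after 15 min. It was at 8.8, 16.6 and 9.0 kb in WT/WT cells, 2.5, 9.5 and 3.9 kb in WT/slow cells and 5.0, 6.9 and 5.8 kb in slow/slow cells after 5 min. By 15 min it was at 11, 30.4 and 21.1 kb, 13.4, 40.2 and 38.4 kb, and 28.0, 30.1 and 26.6 kb. The slow/slow replicates after 15 min spanned 3.5 kb and sat at the upper end of the WT/WT range, with a mean difference of 7.40 kb (SE 6.18, adjusted p = 0.541, limma). Xrcc4 and Xrcc5, which hold and bind the broken ends, reached 24.8 to 34.7 kb in the slow/slow replicates 2 and 3 and were at 2.5 kb in replicate 1.

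Poln, the polymerase already named for its values after 30 min, was at 12.3, 22.1 and 15.2 kb in WT/WT cells, 10, 12.1 and 19.3 kb in WT/slow cells and 10.3, 10.7 and 13.7 kb in slow/slow cells after 5 min. After 15 min it was at 34.1, 2.5 and 36.3 kb, 26.3, 39.0 and 42.0 kb, and 2.5, 30.6 and 29.4 kb. With 2.5 kb apart, the slow/slow values lie below the WT/WT values, and the difference was -5.20 kb (SE 4.97, adjusted p = 0.608, limma). Rad18, the ubiquitin ligase that calls in bypass polymerases, was at 9.6, 7.4 and 9.2 kb in WT/WT cells after 15 min and at 2.5 kb in all slow/slow replicates. Pole, the catalytic subunit of the leading-strand polymerase, was at 21.8, 29.7 and 26.8 kb in slow/slow cells and at 2.5, 2.5 and 29.7 kb in WT/WT cells. Polq, the polymerase of microhomology-mediated end joining, was at 42.3 and 8.0 kb in WT/WT replicates 1 and 3 and at 21, 35.4 and 24.1 kb in slow/slow cells. Prim2, a primase subunit, was at 2.5 kb in 8 of 9 samples after 15 min although its transcript is 216 kb long.

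The WT/slow cells, with 1 mutant copy, were set against WT/WT cells in the same fit. After 5 min none of 45 genes passed (limma), where 0.0141% of 7109 genes did, and none of the 45 had an unadjusted p under 0.05, against 4.59% of all genes. The median difference was -0.27 kb, against -0.37 kb over all genes, and ranged from -2.86 kb without WT/slow replicate 2 to 2.22 kb without WT/WT replicate 2. After 15 min none of 14 genes passed, where 5.54% of 3808 genes did, and 3 of the 14 (Orc5, Brca2 and Rif1) had an unadjusted p under 0.05, against 18.6% of all genes. The median difference was 5.13 kb, against 0.44 kb over all genes, and -3.22 kb over 7 genes without WT/WT replicate 3, 8.63 kb without WT/WT replicate 2, and 3.27 and 2.17 kb without WT/slow replicates 2 and 3.

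The advance from 5 to 15 min was measured within each genotype as the difference of the means, divided by 10 min for a rate. In WT/WT cells 20 genes could be tested, 8 passed (7 advanced, and Lig3 had a lower mean after 15 min), and 15.3% of all genes tested passed. In WT/slow cells 10 of 26 passed, all advancing, where 19.2% of all genes did. In slow/slow cells 12 of 33 passed, all advancing, where 31.8% of all genes did. The median rates over the genes tested were 1.58 kb/min in WT/WT, 1.67 kb/min in WT/slow and 1.51 kb/min in slow/slow cells, against 0.38, 0.78 and 1.30 kb/min over all genes. These genes are longer than all genes (median 62.5 against 47.0 kb), and length was not matched in this comparison. Among transcripts of at least 60 kb, 7 of 15 of these genes passed in WT/WT cells, and 608 of 2663 of all genes did. The sets of genes tested differ between the genotypes, and a gene enters only where it is not at 2.5 kb. The median rates therefore do not compare the genotypes. They were -0.35, 0.31 and 0.96 kb/min in the same order with 2.5 kb kept as a value and all 46 genes included, turning negative in WT/WT cells, and with the shortest transcript they were 0.23, 0.57 and 1.30 kb/min.

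**Figure D4:**
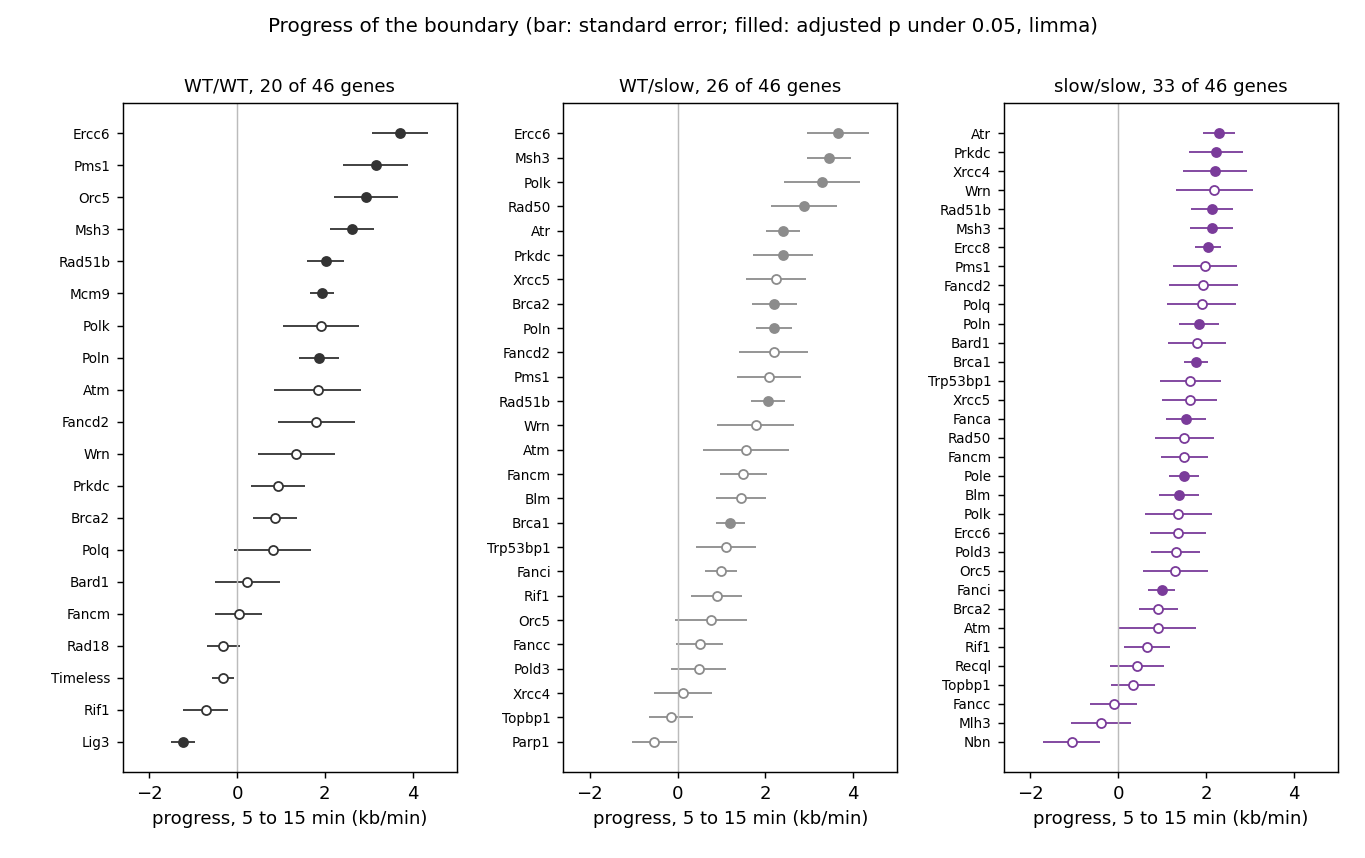
Rate of advance of the boundary from 5 to 15 min (x axis, kb/min) for each DNA repair and replication gene that could be tested (y axis), by genotype. Points are differences of means divided by 10 min, bars the standard error, and filled points passed an adjusted p of 0.05 (8, 10 and 12 genes). The highest rates are those of Ercc6 in WT/WT (3.71 kb/min) and WT/slow cells (3.65 kb/min) and of Atr in slow/slow cells (2.30 kb/min).

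The highest rates in WT/WT cells belonged to Ercc6 (3.71 kb/min, SE 0.637), Pms1 (3.15 kb/min, SE 0.734) and Orc5 (2.94 kb/min, SE 0.734). In slow/slow cells the highest were Atr (2.30 kb/min, SE 0.356), Prkdc (2.23 kb/min, SE 0.616) and Xrcc4 (2.21 kb/min, SE 0.734). Rad51b, Msh3 and Poln passed in all 3 genotypes. Rad51b, a recombination gene, moved at 2.02, 2.06 and 2.13 kb/min, Msh3 at 2.62, 3.45 and 2.13 kb/min and Poln at 1.87, 2.20 and 1.84 kb/min, in the order WT/WT, WT/slow, slow/slow. These counts varied with the replicate left out. For WT/slow and slow/slow cells the leave-outs that lowered the count most are given here, and leaving out replicate 1 changed it less. Without slow/slow replicate 2, whose boundaries after 15 min were the longest of that genotype, Brca1 (1.77 kb/min with all replicates, SE 0.279) was the 1 gene of 23 that passed in slow/slow cells (13.1% of all genes), and without slow/slow replicate 3 the count was 3 of 23 (21.8% of all genes). In WT/slow cells 3 of 9 passed without replicate 2 (17.2% of all genes) and 5 of 11 without replicate 3 (11.8% of all genes). In WT/WT cells 3 of 10 passed without replicate 1 (11.2% of all genes), 7 of 18 without replicate 2 (18.8% of all genes) and 5 of 10 without replicate 3 (12.3% of all genes). With 2.5 kb kept as a value, the direction was mixed, with 5 genes higher and 5 lower after 15 min in WT/WT (11.8% of all genes passed), 3 higher and 5 lower in WT/slow (13.9%) and 3 higher and 2 lower in slow/slow cells (13.3%).

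Whether the advance of slow/slow cells differed from that of WT/WT cells could be tested in 16 genes, of which 7 had less progress in slow/slow cells. None passed (limma), where 2.32% of 3361 genes did, and 1 of the 16 (Ercc6) and 13.5% of all genes had an unadjusted p under 0.05. The median difference in progress was 0.83 kb, against 2.42 kb over all genes tested. Its sign depended on single replicates, with -1.63 kb over 15 genes without WT/WT replicate 2, -1.60 kb over 13 without slow/slow replicate 3, -0.94 kb over 6 without WT/WT replicate 1, -9.23 kb over 7 without WT/WT replicate 3, 0.21 kb over 12 without slow/slow replicate 2, and 2.90 kb over 15 without slow/slow replicate 1. It was 7.90 kb over 46 genes with 2.5 kb kept as a value.

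Beyond these 50 genes, 150 other genes of DNA repair and replication were listed, 82 of them with a transcript of at least 20 kb. None of 78 passed in slow/slow against WT/WT cells after 5 min (6 at an unadjusted p under 0.05), and 1 of 18 passed after 15 min, higher in slow/slow cells (8.73% of all genes passed). With 2.5 kb kept, 8 of 81 passed after 15 min, all higher (7.91% of all genes). Their advance passed in 3 of 23 genes in WT/WT (15.3% of all genes), 4 of 31 in WT/slow (19.2%) and 23 of 45 in slow/slow cells (31.8%).

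Features of the genes were set beside the boundaries as a description, with genes as points that share libraries and differ in length. The number of replicates at 2.5 kb after 15 min was lower in longer genes in each genotype, with Spearman's rho over the 46 genes of -0.38 in WT/WT, -0.59 in WT/slow and -0.32 in slow/slow cells. It was higher in genes with more G and C in the first 20 kb (rho 0.28, 0.47 and 0.40), where GC ranged from 36.7% in Poln to 50.9% in Timeless. In slow/slow cells the mean boundary after 15 min was longer in longer genes (rho 0.50 over 34 genes) while rho with the number of exons in the first 20 kb was -0.03. Other annotated genes overlap 31 of the 46 transcripts, 13 of them with a protein-coding gene. Fanci overlaps Polg, Fanca overlaps Gm20388 and Zfp276, and Trp53bp1 overlaps Tubgcp4, while Blm overlaps no protein-coding gene. Whether boundaries were called by strand is not given in the sources used here.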

How the data were processed

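Of the 45 4sU-DRB-seq samples of mouse ESCs, 27 (3 genotypes, 5, 15 and 30 min, 3 replicates) were used, and 18, without DRB or without release from it, were not analysed here. The values deposited by the authors are distances in bases from the annotated start to the end of the transcription wave, 1 per transcript and sample. Per the methods and the labels, the authors aligned reads to mm10 (GRCm38) with Bowtie2 2.2.9 and called each wave against the mean of the samples that had not been released. The release of the annotation and the read depth are not given in the sources used here. A block length of 4 h was taken from the methods. Of 122968 transcripts, 122200 were found in GENCODE M21, which gave gene names, exons and neighbours. No 2 tables were identical.

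For each gene the longest transcript of at least 20 kb was used. Boundaries of 2.5 kb were set apart as no value, and a gene was tested where each group held at least 2 others. limma 3.58.1 (R 4.3.3, lmFit and eBayes, on kb) was fitted over all genes and genotypes at 5 and 15 min, and p-values adjusted by Benjamini-Hochberg were read against 0.05. Tables, motif counts and figures were made with pandas 2.3.3, NumPy 2.4.6, SciPy 1.17.1, samtools 1.23.1 and Matplotlib 3.10.9 under Python 3.11.15. Promoter sequences are those of RefSeq.

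The genes and lists were chosen with earlier results of these data known. Values in every sample are given for genes that passed in a comparison of slow/slow with WT/WT cells, for up to 3 falls and 3 rises after 15 min without overlap (Ercc6 and Pms1 fell and none rose), and for the gene of each role with the most boundaries other than 2.5 kb (Rif1, Brca2, Fancd2, Wrn, Pms1, Prkdc, Ercc6, Poln and Orc5). Other genes with such values, among them Trp53bp1, Blm, Fanca, Fanci, Atm and Mcm9, were named after their values were seen.

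Replicates share numbers across genotypes. Deviations from the group means correlated, over genes, between WT/WT and WT/slow samples of 1 number by 0.123 to 0.279 after 5 min and 0.108 to 0.164 after 15 min, and between WT/WT and slow/slow samples by 0.0433 to 0.108 and 0.0140 to 0.0966. By a limit of 0.1 the numbers pair WT/WT with WT/slow samples at both times. Between WT/WT and slow/slow samples, replicates 1 and 2 exceeded the limit after 5 min (0.101 and 0.108), and none did after 15 min. The alternatives kept 2.5 kb as a value, required all 3 boundaries, used transcripts of at least 60 kb or the shortest of at least 20 kb, took log2, fitted only the genotypes compared, let the variance follow the mean, added the replicate number as a block, or left out 1 replicate. Counts of genes without overlap and shares at 2.5 kb without WT/WT replicate 2 were added after seeing the data.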

Additional observations from a re-analysis of the deposited data

Results flagged for a closer look

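Fanci and Fanca were singled out because, with 2.5 kb kept as a value, every slow/slow boundary after 15 min lay above every slow/slow boundary after 5 min, while in WT/WT cells every boundary after 15 min lay below those after 5 min. The advance of Fanci was 9.90 kb in slow/slow and -15.1 kb in WT/WT cells, a difference of 25.03 kb (SE 8.21, adjusted p = 0.140, limma). That of Fanca was 15.4 kb and -15.4 kb, a difference of 30.8 kb (SE 8.13, adjusted p = 0.0561, limma). Neither difference passed the threshold. How many of all genes show this pattern was not counted. Over all genes in this setting, 824 of the 1151 that passed in WT/WT cells had a lower mean after 15 min. Of the 335 whose difference in advance passed, 324 had the larger advance in slow/slow cells. In WT/WT cells 3 of 3 Fanci and 2 of 3 Fanca boundaries after 15 min were at 2.5 kb, and the part of that value in the difference was not tested.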

How the results depend on the processing

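Of the counts, medians and shares recomputed, 180 stayed within 1.5 times of the reported count or within the replicate spread and 42 did not. With 2.5 kb kept as a value, 4 of the repair and replication genes passed in slow/slow against WT/WT after 15 min (median difference 5.27 kb), 1 in WT/slow against WT/WT after 15 min (Mcm9), and 5 for the advance in slow/slow cells, and the median difference in advance was 7.90 kb. Leaving out WT/WT replicate 2 as well, a choice made after seeing the data, left 1 (Trp53bp1) with a median of 4.46 kb. With only the genotypes compared in the fit, the counts were 1 for slow/slow against WT/WT after 15 min (Pms1), 3 for the advance in WT/WT and 20 in slow/slow cells. The advance passed in 4 (WT/WT) and 2 (WT/slow) genes when all 3 boundaries were required, in 5 and 4 on the log2 scale, in 3, 2 and 1 (slow/slow) with the shortest transcript, and in 7 in slow/slow cells among transcripts of at least 60 kb.

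The share at 2.5 kb with the shortest transcript was 11.1% in WT/WT and 11.1% in slow/slow cells after 5 min, 59.0% in WT/WT, 55.0% in WT/slow and 52.8% in slow/slow cells after 15 min and 77.0% in slow/slow cells after 30 min. Among transcripts of at least 60 kb it was 24.2% in WT/slow cells after 15 min and 5.56% in slow/slow cells after 5 min.

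Leaving out 1 replicate at a time gave 0 to 2 genes for slow/slow against WT/WT after 15 min (Ercc6 and Orc5 without WT/WT replicate 3) and 0 to 1 for WT/slow against WT/WT, with medians of -3.22 to 8.63 kb for the latter and -9.23 to 2.90 kb for the difference in advance. For the advance it gave 3 to 7 genes in WT/WT, 3 to 9 in WT/slow and 1 to 11 in slow/slow cells. With the replicate number as a block, 8, 11 and 18 genes passed for the advance in the 3 genotypes in the same order, 0 passed in each comparison of genotypes, and no count moved by more than 1.5 times. The cause of these shifts was not tested. Boundaries of 1 genotype correlated between replicates, over all genes and with 2.5 kb apart, by Spearman's rho of 0.218 to 0.680 after 5 and 15 min.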
